A study of Mus musculus with 165 samples.

Results

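The 10 genes described here encode the serine/arginine-rich (SR) splicing factors Srsf1, Srsf2, Srsf3, Srsf4, Srsf5, Srsf6, Srsf7, Srsf9, Srsf10 and Srsf11. They were selected by symbol as a gene family, with earlier results of these data known, and all 10 were among the 36255 genes of the normalized count table. They were followed by polyA RNA-Seq in PUER cells, a mouse progenitor line of genotype Spi1-/- in which PU.1 is supplied as a fusion with the estrogen receptor's hormone-binding part, so that 4-hydroxy-tamoxifen (OHT) switches it on. All groups share this line and genotype. The 3 undifferentiated libraries came from cells kept in IL3 with no OHT. The IL3-OHT libraries came from cells kept in IL3 and given 200 nM OHT, the treatment for macrophage differentiation. For neutrophil differentiation IL3 was replaced with GCSF for 48 h. The 3 GCSF 0h libraries were taken at the end of this pre-treatment, before OHT, although their titles name OHT, and the GCSF-OHT libraries came from cells then given 100 nM OHT. Cytokine and OHT concentration therefore changed together and cannot be told apart. Each OHT course has 27 time points from 1h to 168h with 3 libraries each, except that GCSF-OHT at 96h, 112h and 152h has 2. Each time point was grown in its own plate, so differences between time points include differences between plates. Cells were detached with trypsin at all time points after 24h, so these differ from the start groups in harvest as well. PUER is a single line, and the replicates are replicate cultures of it.

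SR proteins join 1 or more RNA recognition motifs to a tail rich in arginine and serine. They bind enhancer sequences in exons and recruit the spliceosome to nearby splice sites, and some travel with the mRNA to the cytoplasm and act in export and translation. Kinases of the SRPK and CLK families phosphorylate the tail, and many SR genes hold down their own output through alternative exons that send the transcript to nonsense-mediated decay. Srsf2 is a known target of mutation in myeloid neoplasms.

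The genes lie on 7 chromosomes. In GRCm38 with the GENCODE M21 annotation, Srsf1 (ENSMUSG00000018379) spans chr11:88047373-88053755 on the + strand and Srsf2 (ENSMUSG00000034120) spans chr11:116849901-116853094 on the - strand. Srsf3 (ENSMUSG00000071172) lies at chr17:29032628-29043373 (+), and Srsf7 (ENSMUSG00000024097) at chr17:80200080-80207307 (-). Srsf4 (ENSMUSG00000028911) lies at chr4:131873617-131901706 (+), and Srsf10 (ENSMUSG00000028676) at chr4:135855747-135869908 (+). Srsf5 (ENSMUSG00000021134) lies at chr12:80945504-80950507 (+), Srsf6 (ENSMUSG00000016921) at chr2:162931528-162937121 (+), Srsf9 (ENSMUSG00000029538) at chr5:115327177-115333080 (+) and Srsf11 (ENSMUSG00000055436) at chr3:158010473-158036639 (-). Of their 85 annotated transcripts, 29 are protein coding, 15 are marked for nonsense-mediated decay, 26 retain an intron and 15 are processed transcripts without a coding frame. Of the 10 members, 9 (all but Srsf10) have a transcript marked for decay. The deposited values sum these transcripts per gene, so a shift between a coding and a decay transcript was not measured here. Exons of Srsf2 share 460 bases with Mettl23 and 288 bases with Mfsd11, both on the opposite strand, and the strand setting of the quantification is not given in the sources used here. Over all libraries the median normalized count was 411 for Mettl23, 1540 for Mfsd11 and 9306 for Srsf2.

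The stretches upstream of the RefSeq start sites (GRCm38.p6, gene strand, 5′ to 3′) are shown for Srsf2, Srsf3, Srsf5 and Srsf6, the 4 members with the largest falls at the end of the IL3 course. Capitals mark the motifs CCAAT, or ATTGG on the other strand, and TATAAA. The Srsf2 stretch is chr11:116853095-116853344, that of Srsf3 chr17:29032410-29032627, that of Srsf5 chr12:80945249-80945498 and that of Srsf6 chr2:162931258-162931507.
Srsf2: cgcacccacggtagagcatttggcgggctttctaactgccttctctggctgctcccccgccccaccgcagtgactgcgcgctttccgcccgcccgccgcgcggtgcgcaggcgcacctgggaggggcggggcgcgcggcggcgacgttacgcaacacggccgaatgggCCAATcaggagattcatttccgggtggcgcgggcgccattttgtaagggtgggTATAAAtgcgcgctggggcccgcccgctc
Srsf3: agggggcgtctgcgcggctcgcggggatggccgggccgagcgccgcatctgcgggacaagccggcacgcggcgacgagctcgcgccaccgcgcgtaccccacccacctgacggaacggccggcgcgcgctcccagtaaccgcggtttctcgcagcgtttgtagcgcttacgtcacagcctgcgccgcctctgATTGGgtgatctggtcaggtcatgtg
Srsf5: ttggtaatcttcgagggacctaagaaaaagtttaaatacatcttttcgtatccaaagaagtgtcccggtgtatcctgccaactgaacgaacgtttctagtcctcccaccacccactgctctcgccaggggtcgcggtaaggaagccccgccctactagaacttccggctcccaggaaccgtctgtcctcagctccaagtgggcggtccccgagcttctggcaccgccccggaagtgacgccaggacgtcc
Srsf6: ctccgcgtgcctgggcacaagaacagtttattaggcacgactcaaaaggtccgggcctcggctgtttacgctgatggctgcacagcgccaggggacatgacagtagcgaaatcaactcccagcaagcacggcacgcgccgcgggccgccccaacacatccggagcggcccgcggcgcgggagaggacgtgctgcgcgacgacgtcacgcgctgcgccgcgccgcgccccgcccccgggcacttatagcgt
Among the 10 members, CCAAT on either strand was found in the window from 250 bases before to 50 after the start in Srsf1, Srsf2, Srsf3 and Srsf10, and it was found in 37.4% of the 32851 promoter windows searched. TATAAA, or TTTATA on the other strand, was found in Srsf2 and, outside the printed stretch, Srsf3, and in 13.6% of all windows. GAGGAA, the core of a PU.1 site, or TTCCTC on the other strand, was found in Srsf9 only, against 28.3% of all windows. The E-box CACGTG was in none of the 10 and in 7.15% of all windows.

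Reads on genes ranged from 14600246 to 33147945 per library (median 21960878), and every member held between 896 and 26364 reads in every library, far above a floor of 3 reads. The relatives Srsf12 and Srsf3-ps, a pseudogene, reached at most 4 and 11 reads. The Spi1 row, which encodes PU.1, ranged from 4482 to 13387 normalized counts in these Spi1-/- cells, and the fusion and the endogenous gene were not told apart. Replicates of a group correlated at 0.989 or higher across genes. By chi-square per gene, with a median of 5.99 over 162 replicate pairs, GCSF-OHT 104h replicate 3 stood apart from both other replicates of its group (50.6 and 73.2). All 3 IL3-OHT libraries at 96h and all 3 at 144h stood apart from the time points around them and were left out of the tests, and they are described separately. As in any bulk sample, fewer cells of a type and less RNA per cell cannot be told apart. The summed level of 10 proliferation markers was 16124 to 17015 in undifferentiated cells, 40117 to 44829 in GCSF 0h, 11156 to 11773 in IL3-OHT 168h and 28150.2 to 29993 in GCSF-OHT 168h. That of 12 neutrophil markers was 336629 to 343583, 469789 to 528590, 272385 to 305111 and 756230 to 804177 in the same order. Of 12 monocyte and macrophage markers, summing to 26249 to 29246, 21135 to 24495, 32499 to 37269 and 20504 to 21538, the complement gene C1qb was at 0 in all 4 groups. Genes within a list did not all move with its sum. From GCSF 0h to GCSF-OHT 168h, 8 of the 10 monocyte and macrophage markers tested were called higher and 1 lower. Of the 12 neutrophil markers 5 were called higher and 6 lower, beside 12.1% and 12.6% of all genes. The marker levels move with the groups compared below, and their part in the results was not tested.

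The members were expressed at very different levels in undifferentiated cells. Set per kilobase of the longest coding transcript, Srsf5 was highest at 9054 ± 349 normalized counts (SD, n = 3) and Srsf2 followed at 6483 ± 438. Srsf3 (1799, range 1680.3 to 1907) and Srsf6 (1677 ± 62.4) came next, and their replicates overlapped. Srsf9 (1336 ± 79.1), Srsf11 (1318 ± 60.5) and Srsf7 (1252 ± 64.6) overlapped with each other as well. Srsf10 (858 ± 53.0), Srsf4 (753 ± 9.58) and Srsf1 (705 ± 24.2) closed the order without overlap. The head of this order differed between groups. In GCSF 0h, before OHT, Srsf2 was first at 7696 normalized counts per kilobase, against 5554 for Srsf5. By 4h in IL3-OHT Srsf2 stood at 12274 normalized counts per kilobase against 5320.2 for Srsf5, whereas at 168h Srsf5 was first again in both conditions, at 4794 in IL3-OHT and 5646 in GCSF-OHT. Srsf6 was at 664 (range 619 to 733) in IL3-OHT 168h, where its replicates overlapped with those of Srsf4 and of Srsf1.

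The first comparison asked what GCSF pre-treatment did before any OHT. Srsf1 and Srsf4 rose and Srsf5 fell. In the 3 undifferentiated libraries Srsf1, which binds purine-rich exonic enhancers, stood at 3675, 3740.5 and 3926 normalized counts, and in the 3 GCSF 0h libraries at 5932, 6003 and 6021. No library of one group reached the other. Srsf4, the longest-tailed member, moved from 1677, 1702 and 1721 to 2723, 2849 and 2807. Srsf5, a factor with a pair of RNA recognition motifs, moved the other way, from 13711, 14092 and 14789 to 8752, 8618 and 8757. By limma across all genes, with 1 mean per group and values on the log2(normalized count + 1) scale, the log2 fold changes were 0.66 ± 0.05 (SE, 1.58-fold) for Srsf1, 0.72 ± 0.06 (1.64-fold) for Srsf4 and -0.70 ± 0.05 for Srsf5, with Benjamini-Hochberg adjusted p of 3.11e-21, 1.07e-20 and 3.39e-27. A gene was called when its adjusted p was below 0.05 and its log2 fold change beyond 0.58. In this comparison 13.0% of the 17414 genes tested were called higher and 20.7% lower, so 2 higher and 1 lower of 10 is a share close to the background. Srsf2 (0.25), Srsf3 (0.23), Srsf6 (-0.14) and Srsf11 (-0.26) passed the adjusted p but not the fold. Srsf7 (-0.03, adjusted p 0.734), Srsf9 (0.14, adjusted p 0.0685) and Srsf10 (-0.01, adjusted p 0.922) passed neither.

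**Figure D1:**
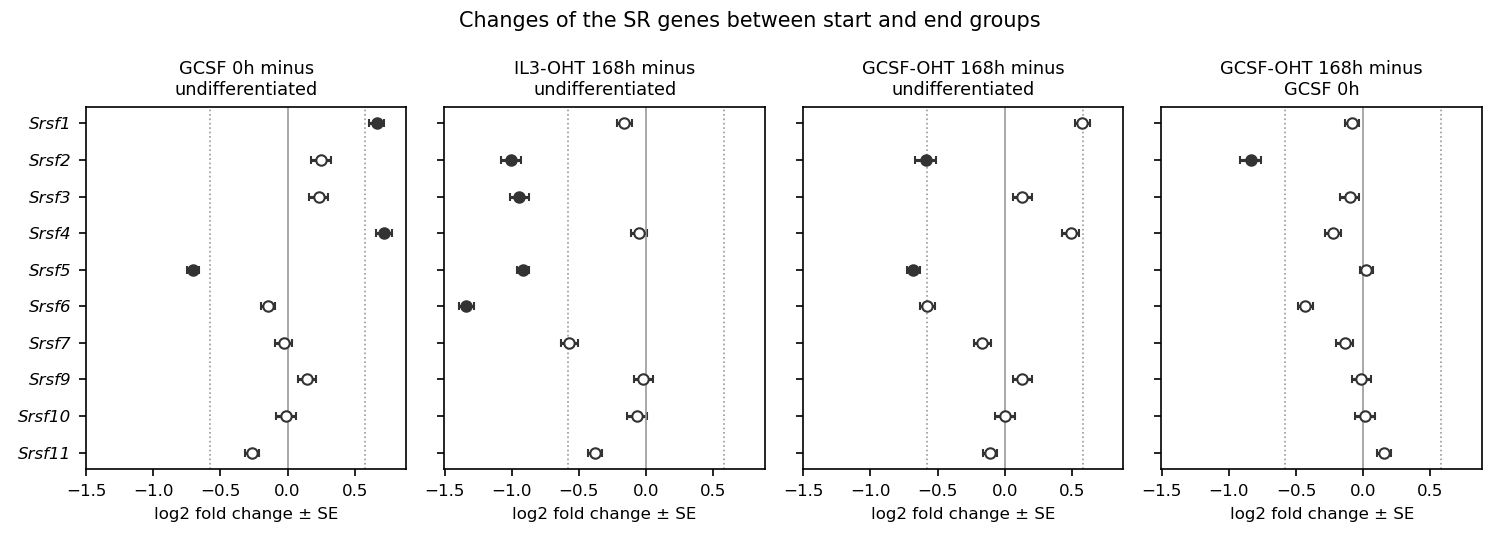
log2 fold change with its standard error for the 10 SR genes in 4 comparisons of start and end groups, from limma on log2(normalized count + 1). Filled points are called, dotted lines mark a log2 fold change of 0.58 in either direction, and the lowest value is that of Srsf6 in IL3-OHT 168h at -1.34.

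After 168h of OHT in IL3 conditions 4 of the 10 members had fallen and none had risen. Srsf6, whose product binds purine-rich enhancers and acts in alternative exon choice, had the largest fall. Its undifferentiated libraries stood at 5660.4, 6036 and 6047 normalized counts and its IL3-OHT 168h libraries at 2184, 2587 and 2257. The log2 fold change was -1.34 ± 0.05 (0.395-fold, adjusted p 7.89e-45 by limma). Srsf2, a nuclear factor with a single RNA recognition motif, fell from 12510.2, 11398 and 13025 to 6540.2, 5785 and 6067 (log2 -1.01 ± 0.08, adjusted p 5.28e-23). Srsf3, the smallest SR protein and an adaptor for mRNA export, fell from 4399, 4739.8 and 4992 to 2279, 2632 and 2425 (log2 -0.95 ± 0.07, adjusted p 8.52e-24). Srsf5 fell from the undifferentiated values given above to 7507, 7659.8 and 7386 (log2 -0.92 ± 0.05, adjusted p 6.80e-36). In each of these 4 genes the highest library at 168h was below the lowest undifferentiated library. The background was 15.2% of genes called lower and 10.2% called higher. The median log2 fold change was -0.48 over the members and -0.03 over all genes tested. Srsf7, which also acts in mRNA export, fell just short of the fold threshold at -0.57 ± 0.06 with an adjusted p of 2.07e-14, and was called lower with upper-quartile scaling (-0.60) and without replicate 2 (-0.62). Srsf11 changed by -0.38 and Srsf1 by -0.16, both past the adjusted p but not the fold. Srsf4 (-0.06), Srsf9 (-0.02) and Srsf10 (-0.07) did not pass the adjusted p (0.466, 0.827 and 0.469).

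At 168h in GCSF conditions 2 members were called, both lower, against a background of 23.6% lower and 15.5% higher. Compared with undifferentiated cells, Srsf5 was at 8795, 8926 and 8839 normalized counts at 168h (log2 -0.68 ± 0.05, adjusted p 3.19e-26 by limma). Srsf2 was at 7966, 8318 and 8232 (log2 -0.59 ± 0.08, adjusted p 2.94e-11), just past the fold threshold, and was not called without replicate 1 (-0.56), without replicate 3 (-0.55) or by edgeR (-0.55). Srsf1 (0.58 ± 0.05) and Srsf6 (-0.57 ± 0.05) fell just short of it in opposite directions, and their adjusted p were 8.22e-18 and 1.37e-17. Srsf1 was called higher by edgeR (0.62) and without replicate 2 (0.59), and Srsf6 lower without replicate 1 (-0.61) and with upper-quartile scaling (-0.66). Against GCSF 0h, which leaves out the pre-treatment, Srsf2 was the only member called (log2 -0.84 ± 0.08, adjusted p 2.86e-18), beside 12.6% of genes called lower and 12.1% higher. Srsf5 in that comparison moved by 0.02 ± 0.05 (adjusted p 0.728). It was at 8709 ± 78.6 normalized counts in GCSF 0h and at 8853 ± 66.5 in GCSF-OHT 168h (SD, n = 3). Srsf6 (-0.43 ± 0.05) and Srsf4 (-0.23 ± 0.06) passed the adjusted p there but not the fold. Both GCSF comparisons share the 168h libraries.

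**Figure D2:**
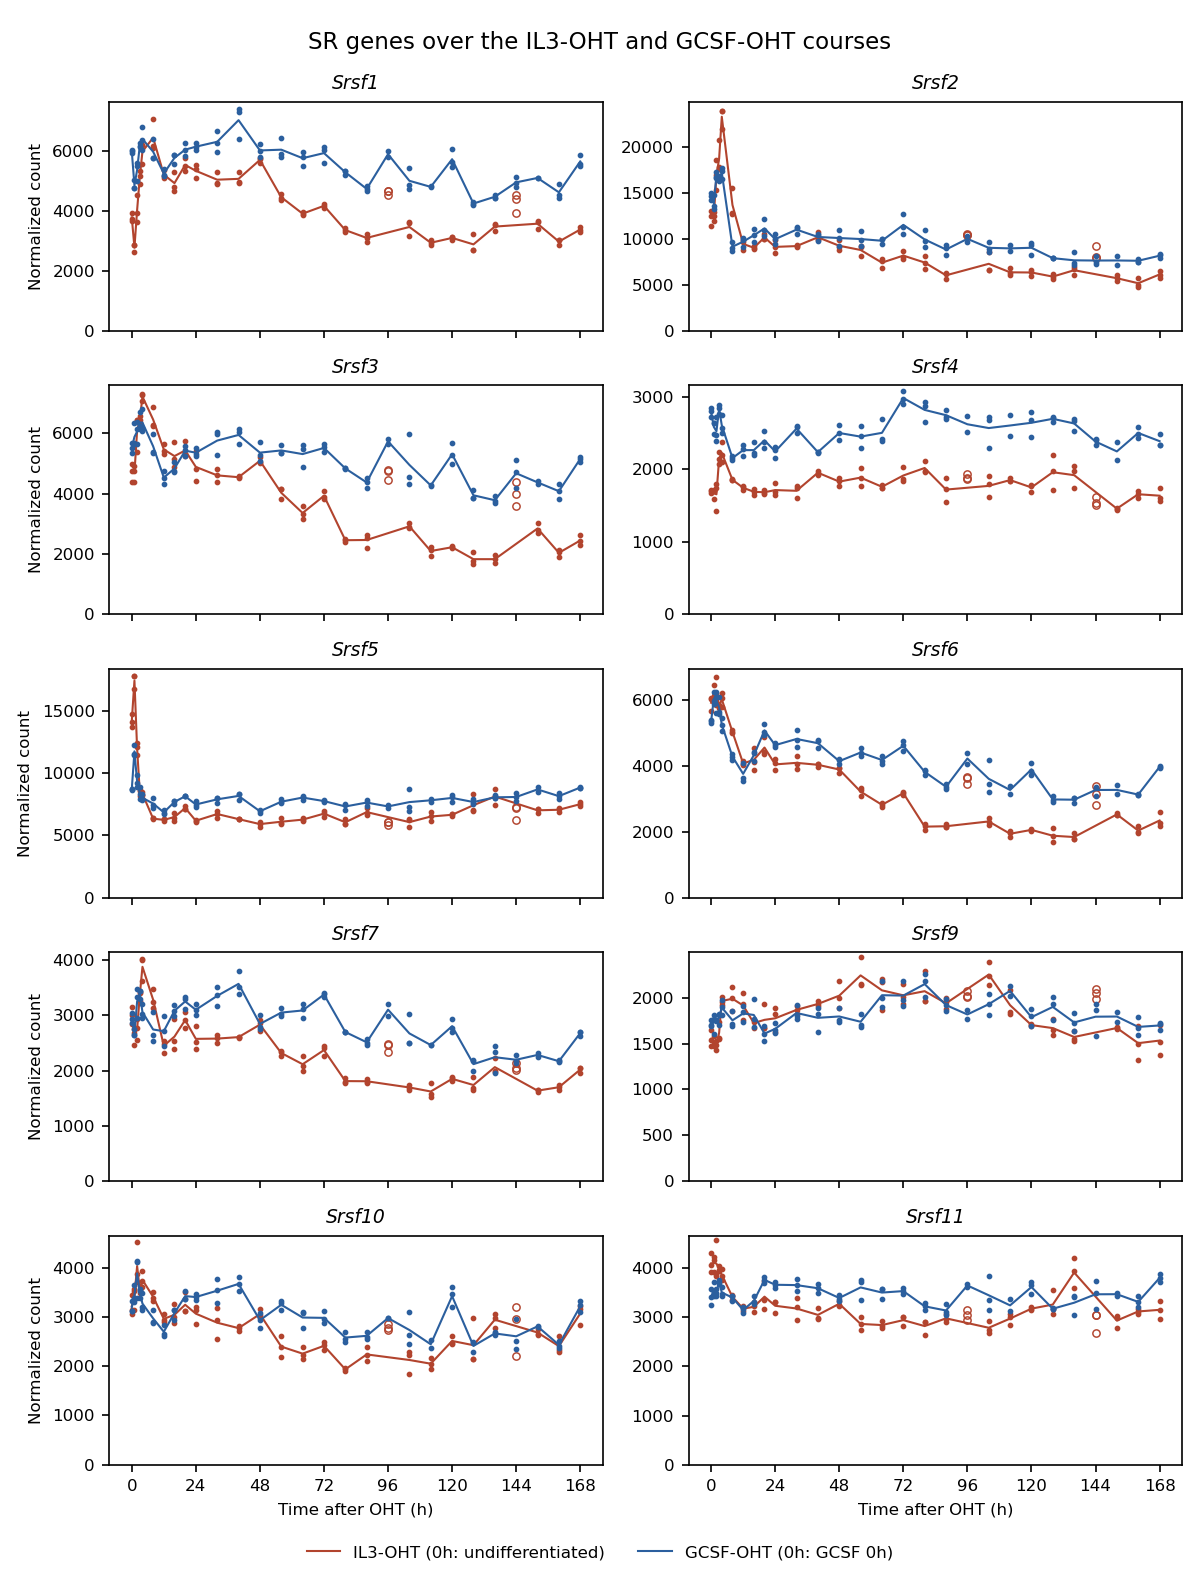
Normalized counts of each SR gene (y axis, from 0) against hours after OHT (x axis) in IL3-OHT (red) and GCSF-OHT (blue), with 1 point per library, lines through the group means and open circles for the IL3-OHT libraries at 96h and 144h that were left out of the tests. Srsf6 in IL3-OHT runs from a mean of 5914 at the start to 1841 at 136h, and the group means of Srsf9 in IL3-OHT stay between 1485 and 2252.

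The courses asked when these changes took place. Tested over all its time points by limma's moderated F test, with a fold beyond the threshold at 1 or more of them, the IL3 course changed 7 of 10 members and the GCSF course 2 of 10, beside 69.7% and 47.7% of all genes. The 7 were Srsf1, Srsf2, Srsf3, Srsf5, Srsf6, Srsf7 and Srsf10. The 2 were Srsf2 and Srsf6, and with upper-quartile scaling Srsf1 (-0.59) and Srsf3 (-0.61) made them 4. The ratio of the highest to the lowest group mean in IL3 was 4.50 for Srsf2, 3.95 for Srsf3, 3.40 for Srsf6, 2.95 for Srsf5, 2.39 for Srsf7, 2.32 for Srsf1 and 2.08 for Srsf10. It was 1.53 for Srsf4, 1.52 for Srsf9 and 1.47 for Srsf11. In GCSF the same ratios ran from 1.21 for Srsf11 to 2.26 for Srsf2.

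In the first hours single members moved in different directions. The highest group mean of Srsf5 was at 1h in both conditions. In IL3-OHT it was at 17791, 17783 and 16752 normalized counts at 1h, all above the undifferentiated libraries, followed by 12088, 11437 and 12414 at 2h, by 8693, 8561 and 8159.5 at 3h and by 6379, 6294 and 6386 at 8h. In GCSF-OHT it was at 11456, 11561 and 12264 at 1h, above its 0h libraries near 8709, and at 9862, 8866 and 9245 at 2h. The changes from the start group at 1h were 0.30 and 0.43 on the log2 scale and stayed below the fold threshold, with adjusted p of 2.39e-07 and 1.56e-13 by limma. From 3h on, Srsf5 was called lower than undifferentiated cells at all 23 tested time points of the IL3 course, down to 5937, 6117 and 5692 at 48h (log2 -1.26). It was called at none of the 27 time points of GCSF-OHT against GCSF 0h.

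Srsf1 was low at 1h, where Srsf5 was high. In IL3-OHT it was at 2849, 2850.2 and 2630.1 normalized counts at 1h, before reaching 5559.6, 6178 and 6197 at 4h and 6158, 7055 and 6102 at 8h. Its log2 fold change from undifferentiated cells was 0.66 at 4h and 0.77 at 8h, both called, and it was called once more at 48h (0.59), but not without replicate 1 or without replicate 2 (0.57 in both). In GCSF-OHT it was at 4748, 4757 and 5040.5 at 1h against 5985 ± 47.2 at 0h, and no time point was called. At 1h all 3 libraries were thus below their start group in both conditions.

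Of the members called higher at 4h in IL3-OHT, Srsf2 had the largest fold change. In IL3-OHT its libraries reached 17594, 17865 and 20773 normalized counts at 3h and 21974, 23983 and 23966 at 4h. They returned to 12740.3, 15496 and 12857 at 8h and went on to 9620.4, 8825 and 9911 at 12h, below every undifferentiated library. The log2 fold change at 4h was 0.92 (adjusted p 1.40e-20 by limma), and that of the step from 4h to 8h was -0.77 ± 0.08 (adjusted p 1.08e-15). In GCSF-OHT it was at 17689.6, 16522 and 17430.2 at 4h (log2 0.24 from 0h, not called) and fell to 8733, 9037 and 9688 at 8h (step log2 -0.91 ± 0.08, adjusted p 4.40e-19). Srsf3 rose alongside in IL3-OHT, to 7060.2, 7309.6 and 7274 at 4h (log2 0.62, called), and was at 6264, 6869 and 6230.0 at 8h. In GCSF-OHT it stood at 6075, 6181 and 6813 at 4h, which was not called against 0h. At 4h in IL3-OHT 3 of 10 members were thus called higher (Srsf1, Srsf2 and Srsf3) and 1 lower (Srsf5), beside 8.63% and 13.5% of all genes.

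**Figure D3:**
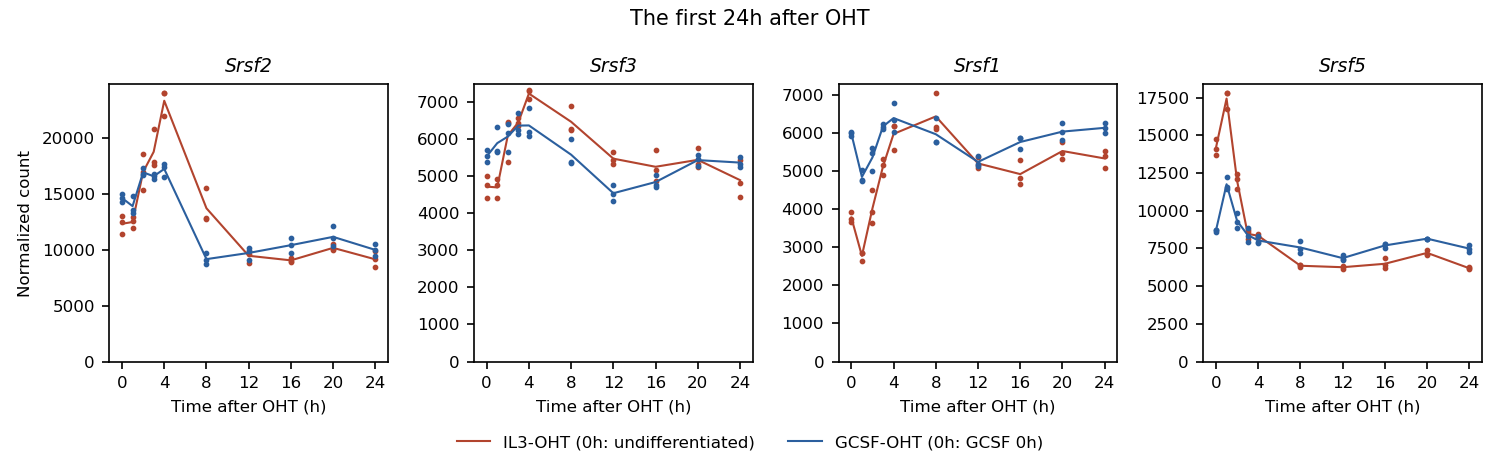
Normalized counts (y axis, from 0) of Srsf2, Srsf3, Srsf1 and Srsf5 over the first 24h after OHT (x axis) in IL3-OHT (red) and GCSF-OHT (blue), 1 point per library and lines through the group means. Srsf2 peaks at a mean of 23307 at 4h in IL3-OHT, and Srsf5 at 17442 at 1h.

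Later in the IL3 course most calls were lower ones. Summed over the 25 tested time points, members were called lower in 70 of 250 tests (28.0%) and in either direction in 76 (30.4%), where all genes were called lower in 15.7% and in either direction in 26.7% of tests. Tests at different time points share the undifferentiated libraries and are not independent. Srsf6 was first called at 48h (3782, 3947 and 3937 normalized counts) and at every tested time point after it, 14 in all. The time of its first call depended on the setting. It was called at 12h with upper-quartile scaling (-0.58, against -0.54), and at 16h (-0.59), 24h (-0.61) and 40h (-0.59) without replicate 1. Srsf2 was called lower from 64h on at 12 time points (11 without replicate 3, which left 72h at -0.52), and Srsf3 from 80h on at 10. Srsf7 was called lower at 8 time points, the first at 80h, with its lowest mean of 1624 at 112h (1576, 1778 and 1517, log2 -0.89). Srsf10, a factor that represses splicing when dephosphorylated, was called lower at 80h, 104h and 112h, with 1906, 1949 and 1956 at 80h (log2 -0.73), and had returned to 2828, 3226 and 3158 by 168h. Only its call at 80h held in each of these settings. That at 104h was lost without replicate 1 (-0.54) and that at 112h without replicate 3 (-0.56), while 88h was called without replicate 2 (-0.59) and with upper-quartile scaling (-0.60), and 128h with upper-quartile scaling (-0.59). IL3-OHT 104h replicate 1 and IL3-OHT 128h replicate 3 stood apart in their groups (chi-square per gene 20.0 and 20.7, and 18.8 and 20.3). Without the first alone Srsf10 was at -0.51 at 104h, not called, and without the second alone at -0.58 at 128h, called. The step from 72h to 80h took Srsf3 from 3889, 4074 and 3815 to 2488, 2477 and 2398 (log2 -0.68 ± 0.07, adjusted p 9.88e-14) and Srsf6 from 3208, 3183 and 3122 to 2064, 2234 and 2171 (log2 -0.56 ± 0.05, adjusted p 1.13e-14, not past the fold). At 80h, 6 of 10 members were called lower (Srsf2, Srsf3, Srsf5, Srsf6, Srsf7 and Srsf10), beside 16.6% of genes, with a median log2 fold change of -0.73 over the members and -0.06 over all genes. Srsf3 and Srsf6 reached their lowest means at 136h, with 1816, 1955 and 1705 for Srsf3 and 1783, 1959 and 1781 for Srsf6. Srsf3 then rose to 2708, 3031 and 2791 at 152h, the only upward step called among the members in all libraries. This step passes over the left-out 144h libraries, in which Srsf3 was higher than at 152h, as given below. Without replicate 2 the rise of Srsf1 from 1h to 2h was called as well (0.62, against 0.53).

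Srsf4, Srsf9 and Srsf11 were called at no time point in either course, although at 104h in IL3 Srsf9 (0.62) and Srsf11 (-0.60) were called without replicate 3, and Srsf11 with upper-quartile scaling at 56h (-0.58), 80h (-0.64) and 104h (-0.62). Srsf9, a repressor and activator of alternative exons close in sequence to Srsf1, was highest at 104h in IL3-OHT. It stood at 2388, 2233 and 2136 normalized counts there against 1535, 1471 and 1652 in undifferentiated cells (largest log2 change 0.54) and ended at 1708, 1375 and 1517. Srsf11, which has a single RNA recognition motif, was at 2688, 2746 and 2922 at 104h (log2 -0.56), and its libraries measured 3930.4, 4196 and 3599 at 136h and 3034, 2784 and 2977 at 152h (step log2 -0.41 ± 0.05, adjusted p 2.40e-11, not past the fold). Srsf4 took the same direction over that last step (log2 -0.39 ± 0.06, adjusted p 1.32e-08), while Srsf3 rose over it.

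In GCSF-OHT, members were called lower than GCSF 0h in 19 of 270 tests (7.04%), against 6.99% of all tests, and never higher, against 8.39%. The share of lower calls is at the background. The 19 were 12 time points of Srsf2, namely 8h, 12h, 88h and all 9 from 104h to 168h, and 7 of Srsf6 between 88h and 160h. Without replicate 1 the call of Srsf2 at 12h was lost (-0.53), and with upper-quartile scaling 56h, 64h, 80h and 96h were added (-0.59 to -0.64). Srsf6 was also called at 104h without replicate 3 of that group (-0.69, against -0.58 with it). Srsf6 reached 3036, 3019 and 2865 normalized counts at 136h, against 5299, 5386 and 5356 at 0h (log2 -0.85), and was back at 3974, 3925 and 4006 at 168h. Srsf3 reached 3905, 3696 and 3739 at 136h (log2 -0.55, not called). The step from 120h to 128h was the largest one for Srsf1, Srsf3, Srsf6, Srsf7 and Srsf10 in GCSF-OHT, between -0.38 and -0.50 on the log2 scale, and none of these passed the fold. The 120h libraries of both conditions carry a different library name prefix from all others, and at 120h these 5 genes were 0.30 to 0.49 above the mean of 112h and 128h on the log2 scale. Whether that step reflects the libraries was not tested.

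Consecutive time points rarely differed beyond the threshold. In IL3-OHT the steps to 104h and 152h start from 88h and 136h, because 96h and 144h were left out. Members were called in 3 of 250 steps of the IL3 course (1.20%, against 3.65% of all genes) and in 1 of 270 steps of the GCSF course (0.370%, against 1.81%). The 4 steps were the fall of Srsf2 from 4h to 8h in both conditions and the fall and later rise of Srsf3 in IL3-OHT given above. The IL3 course had 5 called steps without replicate 2, which added Srsf1 from 1h to 2h and Srsf6 from 72h to 80h, and 5 without replicate 3, which added falls of Srsf5 from 1h to 2h (-0.60) and Srsf2 from 8h to 12h (-0.61).

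**Figure D4:**
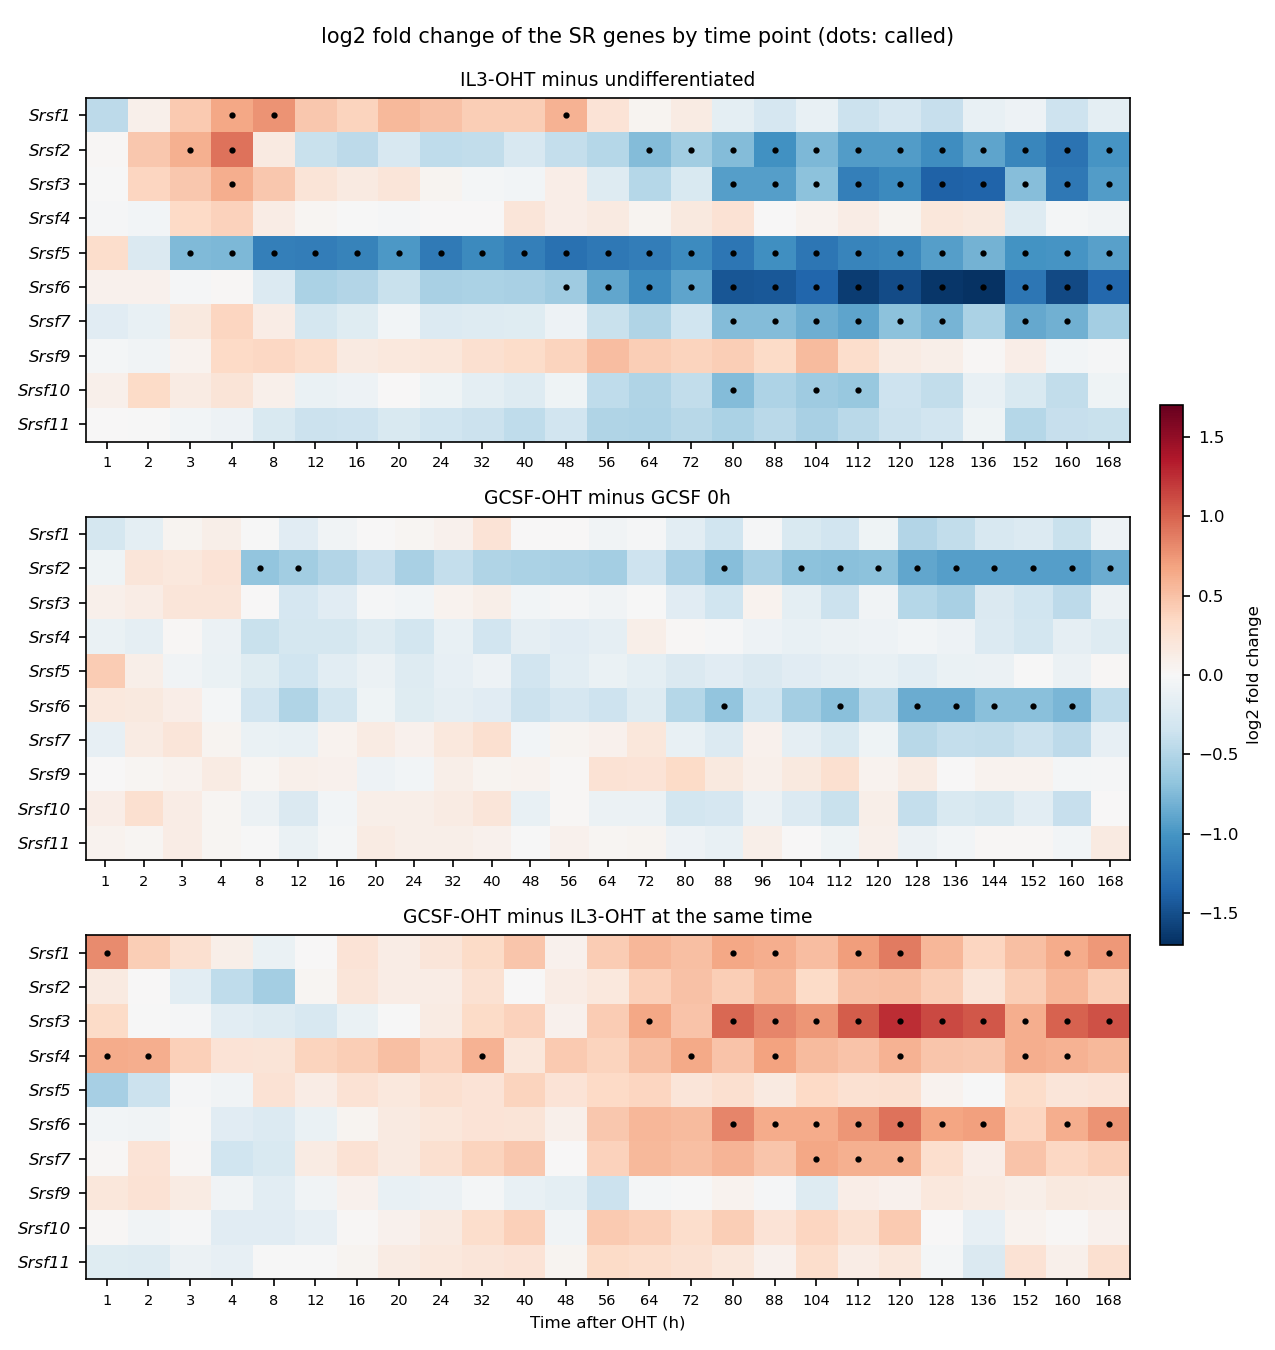
log2 fold change (colour scale) of each SR gene (rows) at each tested time point (columns, hours after OHT) in IL3-OHT against undifferentiated cells, in GCSF-OHT against GCSF 0h and in GCSF-OHT against IL3-OHT, with dots for called values. Srsf5 is called lower at 23 of 25 time points in the top panel and at none in the middle one.

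GCSF-OHT and IL3-OHT were then compared at each of their 25 shared tested time points. Members were called higher in GCSF-OHT in 38 of 250 tests (15.2%) and lower in none, where all genes were called higher in 9.97% and lower in 12.7% of tests. Srsf2 at 8h (-0.58, adjusted p 8.71e-11 by limma) and Srsf5 at 1h fell just short of a lower call. Srsf2 was called lower without replicate 1 (-0.59) and without replicate 3 (-0.66). Srsf3 was called at 11 time points, Srsf6 at 9, Srsf4 at 8, Srsf1 at 7 and Srsf7 at 3. With upper-quartile scaling Srsf4 was called at 3, having lost 2h (0.56), 32h (0.53), 120h (0.57), 152h (0.55) and 160h (0.57), and without replicate 3 Srsf7 was called at 1. Apart from Srsf1 at 1h and Srsf4 at 1h, 2h and 32h, all of these calls were at 64h or later, and the call at 32h was also lost without replicate 2 (0.56) and that at 2h without replicate 3 (0.55). Without GCSF-OHT 104h replicate 3, Srsf6 (0.52) and Srsf7 (0.56) were not called at 104h, Srsf4 (0.61) was, and Srsf3 (0.60) was called as before. Without IL3-OHT 104h replicate 1 Srsf4 (0.59) was also called at 104h, and without IL3-OHT 128h replicate 3 Srsf1 (0.65) was called at 128h. The largest difference called was that of Srsf3 at 120h (log2 1.25), where its GCSF-OHT libraries were at 4965, 5675 and 5272 normalized counts and its IL3-OHT mean was 2221. At 168h Srsf3 was at 5061, 5228 and 5162 in GCSF-OHT against 2279, 2632 and 2425 in IL3-OHT (log2 1.08). Srsf6 (0.76) and Srsf1 (0.74) were also called there, 3 of 10 members beside 12.0% of genes. Averaged over the 25 time points, no member passed the fold, beside 9.34% of genes called higher and 15.1% lower, and 9 of 10 passed the adjusted p, all higher in GCSF-OHT, where 35.2% of all genes passed it as higher and 45.3% as lower. The averages ran from 0.09 ± 0.01 for Srsf11 to 0.48 ± 0.01 for Srsf4, and Srsf9 was at 0.01 ± 0.01 (adjusted p 0.713). The median of all genes in this comparison was -0.06. The proliferation markers moved in the same direction, 9 of 10 being called higher in GCSF-OHT with a median log2 fold change of 1.04. Of the neutrophil markers 10 of 12 were higher (median 1.03), and of the 10 monocyte and macrophage markers tested 6 were lower and 1 higher (median -1.25). The part of these lists in the differences of the members was not tested.

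The changes from each start group were then compared between the 2 conditions, as a difference of changes. The conditions differ in OHT concentration as well as cytokine, and neither course has later libraries without OHT. The test therefore cannot separate an effect of OHT from its concentration or from time in culture. At 8h the change was lower in GCSF for Srsf1 (log2 difference -0.77 ± 0.08) and Srsf2 (-0.83 ± 0.11) and higher for Srsf5 (0.95 ± 0.07), with adjusted p of 5.40e-16, 8.26e-11 and 2.72e-25 by limma, beside 16.0% of genes called higher and 11.4% lower. At 168h it was higher for Srsf3 (0.85 ± 0.10), Srsf5 (0.94 ± 0.07) and Srsf6 (0.91 ± 0.08), beside 14.5% and 11.3%. Srsf1 entered this test with start levels of 3781 ± 130 in undifferentiated cells and 5985 ± 47.2 in GCSF 0h. Its levels in GCSF-OHT and IL3-OHT at 8h did not differ by the adjusted p (log2 -0.11, adjusted p 0.0962 by limma). Srsf5 was called at 23 of 25 time points, always higher in GCSF. It entered this test with start levels of 14197 ± 547 in undifferentiated cells and 8709 ± 78.6 in GCSF 0h, and its levels at the same time point differed by less than the fold threshold, although 21 of the 25 differences passed the adjusted p. GCSF-OHT was lower at 1h (log2 -0.57, adjusted p 8.43e-21 by limma) and 2h (-0.36) and higher at the other 19 of these, by up to 0.37 at 40h. The difference at 1h was called with upper-quartile scaling (-0.60) and without replicate 3 (-0.63). Over all members and time points 48 of 250 tests were higher and 5 lower in GCSF, against 12.8% and 8.75% over all genes. Srsf6 was called at 12 time points, Srsf3 at 8, Srsf7 at 4 and Srsf11 at 1, higher in GCSF, and Srsf1 at 3 and Srsf2 at 2, lower in GCSF. Without replicate 3 Srsf7 was called at 2 and Srsf1 at 5, and the call of Srsf11 at 56h was lost without replicate 2 (0.53) or replicate 3 (0.54). At 104h Srsf7 was at 0.68, and at 0.59 and called without GCSF-OHT 104h replicate 3. All 25 of these tests share the same 6 start libraries.

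The IL3-OHT libraries at 96h and 144h were taken 8 h after part of the medium was replaced and OHT added anew, as were those at 48h. At 48h no member was called against the mean of 40h and 56h, beside 1.60% of genes called in either direction, with Srsf1 at 0.26, Srsf3 at 0.25, Srsf6 at 0.11 and Srsf2 at -0.03 on the log2 scale. Against the mean of 88h and 104h, Srsf2, Srsf3 and Srsf6 were called higher at 96h. Srsf3 stood at 4798, 4454 and 4762 normalized counts, against 2209, 2642 and 2534 at 88h and 2877, 2856 and 3011 at 104h (log2 0.80 ± 0.06, adjusted p 4.54e-23 by limma over all libraries). Srsf2 stood at 10414, 10587 and 10388, against 6197, 5620.5 and 6295 at 88h (log2 0.66 ± 0.07). Srsf6 stood at 3621, 3654 and 3465, against 2133, 2139.9 and 2231 (log2 0.68 ± 0.05). The background was 9.34% of genes called higher and 8.18% lower. At 144h Srsf3 was called, at 4397, 3973 and 3604 against means of 1826 at 136h and 2843 at 152h (log2 0.81 ± 0.06), beside 8.58% of genes higher and 6.77% lower, and Srsf6 was at 0.52 and Srsf2 at 0.45. Replicate 3 of IL3-OHT 144h stood apart from both other replicates (chi-square per gene 28.0 and 25.3). Without it Srsf6 was called too (0.60) and Srsf3 stayed called (0.88), and Srsf6 was also called with upper-quartile scaling (0.59). In GCSF-OHT, where the medium was changed at the same hours, no member was called at 48h, 96h or 144h against its neighbours, where 0.350%, 4.66% and 1.85% of all genes were called in either direction. At 120h, which did not follow a medium change, none was called either, beside 2.01% of genes. Srsf3 was at 0.31 ± 0.07 at 96h. Srsf5 was at -0.10 at 96h and -0.13 at 144h in IL3-OHT.

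Across the 54 groups of the tests, profiles of the members were compared on the log2 scale. Of the 45 pairs, 38 correlated positively and 24 at above 0.5 (median Pearson's r 0.52). The 2 pairs below -0.5 were Srsf9 with Srsf11 (-0.57) and Srsf9 with Srsf5 (-0.57). These are descriptions over group means that share normalization and time, with no test. Among 12298 genes whose normalized count averaged 10 or more, the 5 non-members most like the mean standardised profile of the members were Rfc3, a subunit of the clamp loader of DNA replication (r 0.95), Smpd4 (0.94), Isg20l2 (0.94), Dbr1, the lariat debranching enzyme (0.94), and Ints7, a subunit of the Integrator complex (0.94). The most similar single genes were Nfyc, a subunit of the CCAAT-binding factor, for Srsf3 (0.98), Mat2a, which makes S-adenosylmethionine, for Srsf6 (0.97), Nubp2 for Srsf2 (0.96), Elk4 for Srsf5 (0.95), Adal for Srsf1 (0.94), Tra2b, an SR-related splicing factor, for Srsf7 (0.94), Mta2 for Srsf4 (0.94), Ppig for Srsf10 (0.93) and Ppil4 for Srsf11 (0.89), both cyclophilins of the spliceosome. Srsf9 had no profile as close, the best being Mvk at 0.77.

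The other genes of the splicing machinery were described by list. As given above, 20.7% of all genes were called lower after GCSF pre-treatment, 10.2% were called higher and 15.2% lower at the IL3 end point, and 15.5% higher and 23.6% lower at the GCSF end point. Of 19 SR-related proteins tested, none rose and 2 fell after GCSF pre-treatment, with Rbm39 lowest (log2 -0.91), and 1 rose and 4 fell at the IL3 end point, with Luc7l at 0.77 and Rbm39 at -0.75. None was called at the GCSF end point. Of the 10 genes for SR protein kinases, phosphatases and import factors, none was called lower at either end point, and 3 in IL3 and 4 in GCSF were called higher. The highest were Clk4, a kinase of SR proteins, in IL3 (log2 1.11) and Srpk2, the cytoplasmic SR protein kinase, in GCSF (1.84). Srpk2 also rose against GCSF 0h (1.38). Of 31 core spliceosome genes, 6 were lower at the IL3 end point and 2 at the GCSF end point, none higher, which is near the share of all genes called lower in IL3 and below it in GCSF, with Sf1, the branch point binding protein, lowest in both (log2 -1.17 and -1.08). The medians of the core list were -0.34 and -0.18, those of the members -0.48 and -0.05 and those of all genes -0.03 and -0.11. Of 25 hnRNP genes, whose products often oppose SR proteins at exons, 1 rose and 2 fell in IL3 and 4 rose and 2 fell in GCSF, with Hnrnpll at 2.11 in GCSF. Of 14 nonsense-mediated decay factors, 3 were lower at the IL3 end point, with Smg5 at -1.30, and 2 at the GCSF end point. In the difference of changes at 8h, 12 of 31 core spliceosome genes and 9 of 25 hnRNP genes were called lower in GCSF, beside the 2 SR members and 11.4% of all genes, with Prpf31 at -1.53 and Hnrnpab at -1.16. In the same lists 1 core gene (Sf3b1 at 0.98) and 2 hnRNP genes (Hnrnph3 highest at 1.04) were called higher. Of the SR-related proteins 2 were higher and 0 lower, of the decay factors 1 higher and 0 lower, and of the kinases, phosphatases and import factors 1 higher and 1 lower, beside 16.0% of all genes called higher.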

How the data were processed

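PolyA RNA-Seq reads of 165 PUER libraries in 56 groups were quantified by the authors with Salmon on GRCm38, and the deposited signal is the read count per gene divided by the DESeq2 size factor of its library. Versions, transcript annotation and strand setting are not given in the sources used here. Whole reads, within 1e-06, came out of all nonzero values (100%) when divided by the value of 1 read in that library, so reads were recovered for the count tests. Main tests used limma 3.58.1 in R 4.3.3 on log2(normalized count + 1), with 1 mean per group, a mean-variance trend and Benjamini-Hochberg adjustment over the 17414 genes with at least 5 in 1 library. The fit did not use IL3-OHT 96h and 144h except to compare them with their neighbours. Calls needed an adjusted p below 0.05 and a log2 fold change beyond 0.58. Alternatives were pseudocounts of 0.5 and 5, no filter, a mean of at least 10, upper-quartile scaling, edgeR 4.0.16, DESeq2 1.42.0, leaving out each replicate, a replicate block, all libraries in the fit and, chosen after seeing the data, leaving out 1 library whose chi-square per gene with both other replicates was over 3 times the median (replicate 3 of GCSF-OHT 104h, IL3-OHT 128h or IL3-OHT 144h, or replicate 1 of IL3-OHT 104h). The tests were run on simulated data for GCSF 0h against undifferentiated cells over 10669 genes, where limma recovered 100 of 100 genes changed 2-fold and 98 of 100 changed 1.74-fold, with 0 false calls. The simulation gave all genes the same dispersion, left out genes of low mean count and held no plate differences or libraries that stand apart. It therefore does not measure error rates in the real data. The study describes the replicates as biological replicates of its 1 line. The members and gene lists were chosen with earlier results of these data known. All 10 members and, for each other list, the called genes of highest and lowest fold change could be named, as could the largest step of each member and, for profiles, the 5 genes most like the mean of the members and the 1 most like each member. Lists of 6 erythroid, 6 lymphoid and 6 mast cell and basophil markers summed to at most 65.3, 81.8 and 263 normalized counts in the start and 168h groups. Promoters came from RefSeq (GRCm38.p6) and all 10 members matched by symbol. Figures were drawn with matplotlib 3.10.9.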

Additional observations from a re-analysis of the deposited data

Results flagged for a closer look

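The change from the start group differed between GCSF-OHT and IL3-OHT for 7 of the 10 members, at 1 or more of 25 time points, by limma's test of the difference of changes itself. Over all time points 21.2% of the members' tests were called, against 21.5% of the tests of all genes, so the share of calls is at the background. Values are log2 differences, GCSF minus IL3, at 8h, at 168h and at the time of each member's largest difference. At 8h they were -0.7706 for Srsf1, -0.8264 for Srsf2 and 0.9545 for Srsf5. At 168h they were 0.8456 for Srsf3, 0.9404 for Srsf5 and 0.9091 for Srsf6. Srsf1 started higher and Srsf5 lower in GCSF 0h than in undifferentiated cells. Their levels at 8h differed between conditions by -0.1073 for Srsf1 and 0.2501 for Srsf5, neither of them called. The largest difference of Srsf3 was 1.0221 at 120h, that of Srsf6 was 1.0623 at 120h and that of Srsf5 was 1.0770 at 40h. Srsf7 reached 0.6792 at 104h (0.5873 without GCSF-OHT 104h replicate 3, which stood apart, and 0.5716, not called, without replicate 3 of every group) and Srsf11 reached 0.5949 at 56h (0.5327 without replicate 2 and 0.5409 without replicate 3, not called). The 120h libraries carry their own name prefix in both conditions, and its part in the 2 values at 120h was not tested.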

How the results depend on the processing

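Counts of called members were recomputed under the alternatives, and 496 of 509 recomputed counts stayed within 1.5 times the reported one. Counts of 0 that stayed 0 are among them. The pseudocounts, the filters, the replicate block and the fit of all libraries could hardly move genes with this many reads. They moved no count, and no recomputed log2 fold change of a single member by more than 0.0015. By edgeR the GCSF end point had 1 higher and 1 lower. With upper-quartile scaling 4 members changed over the GCSF course, 1 test of GCSF-OHT against IL3-OHT by time was lower and 2 members were higher at IL3-OHT 144h than at its neighbours. Leaving out each replicate gave 0 to 1 higher and 1 to 2 lower at the GCSF end point, 1 to 2 higher and 3 to 4 lower consecutive IL3 steps, 0 to 2 lower tests of GCSF-OHT against IL3-OHT by time and 1 to 2 higher at IL3-OHT 144h. Leaving out GCSF-OHT 104h replicate 3, an alternative chosen after seeing the data, gave 20 lower calls of GCSF-OHT time points against GCSF 0h (reported 19) and 37 higher calls of GCSF-OHT against IL3-OHT by time (reported 38). Leaving out IL3-OHT 144h replicate 3, also chosen after seeing the data, gave 2 members higher at 144h than at its neighbours (reported 1). Leaving out IL3-OHT 104h replicate 1 or IL3-OHT 128h replicate 3, chosen likewise, gave 69 and 71 lower calls against undifferentiated cells (reported 70). The causes were not tested. Without replicate 1 or 2, GCSF-OHT 96h, 112h and 152h hold 1 library each, which is assumed to vary like the other groups.

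Signs were compared for the start and end groups, the averaged comparison of conditions and the differences of changes at 8h and 168h. There, log2 fold changes changed sign only for values near 0 that were not called. In GCSF pre-treatment edgeR gave 0.0115 for Srsf7 and 0.0271 for Srsf10, and leaving out replicates gave -0.0754 to 0.0524 for Srsf10. At the IL3 end point Srsf9 was 0.0015 by edgeR and -0.1102 to 0.0285 with replicates left out. At the GCSF end point Srsf10 was -0.0872 with upper-quartile scaling, -0.0034 by DESeq2 and -0.0393 to 0.0782 with replicates left out. Against GCSF 0h, upper-quartile scaling gave -0.0373 for Srsf5 and -0.0492 for Srsf10, and leaving out replicates gave -0.0342 to 0.0220 for Srsf9 and -0.0264 to 0.0361 for Srsf10. Between GCSF-OHT and IL3-OHT Srsf9 was -0.0182 with upper-quartile scaling and -0.0097 to 0.0323 with replicates left out. For its difference of changes at 168h these were -0.0275 and -0.0495 to 0.0802, and edgeR gave -0.0163.

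Same-numbered replicates did not deviate together (correlations of -0.140 to 0.031 in 5 pairs of groups), and the replicate block changed none of 42 counts: 4 members were lower at the IL3 end point and 2 at the GCSF end point with it. DESeq2 was not run for single time points, steps or whole courses, nor edgeR for differences of changes other than at 8h and 168h. The values are per gene, so transcript choice was not measured.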
